A study of Mus musculus with 4 samples.

Results

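The genes described here encode enzymes of the Golgi and endoplasmic reticulum that build glycans: glycosyltransferases, which add 1 sugar at a time to a lipid, a protein or a growing chain, and sulfotransferases, which add sulfate to sugars already in place. They were chosen by a rule on gene symbols, as the families B3gnt, B3galt, B3gat, B4galt, B4galnt, Galnt, St3gal, St6galnac, Fut, Mgat, Gcnt, Chst, Chsy, Hs2st, Hs3st, Hs6st, Ndst, Ext and Extl. Of 45037 probe sets on the array, 227 belonged to such a gene, which gave 114 genes of the 18193 that had a symbol of their own. B3gnt5 was set against its B3gnt relatives, and all families were compared between genotypes.

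Transcripts were measured in whole mouse brains at embryonic day 14.5 on 4 Affymetrix arrays. All embryos were of a mixed 129SvJ/C57Bl/6J background and were flox/flox at Sox4 and at Sox11, a pair of SoxC transcription factor genes that act in newly formed neurons. The 2 double-knockout arrays came from embryos that also carried Brn4::Cre, a recombinase named after the transcription factor gene Brn4 (Pou3f4), so deletion is limited to cells in which this driver is active and their descendants. The 2 control arrays came from embryos whose labels list no Cre, so the effects of Cre itself and of the deletion cannot be told apart. The labels call the arrays biological replicates, without saying whether 1 embryo or a pool went into each, and the series title speaks of the spinal cord where the sample labels name whole brain.

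As background, glycans of the developing brain fall into a few kinds. Glycosphingolipids start from glucosylceramide and lactosylceramide, and branch into gangliosides, which carry sialic acid, and into lacto- and neolacto-series lipids, which begin when B3gnt5 adds N-acetylglucosamine to lactosylceramide. Proteins carry N-glycans, mucin-type O-glycans and O-mannose glycans, which can be extended by repeats of galactose and N-acetylglucosamine and capped by fucose, sialic acid or the sulfated HNK-1 epitope. Proteoglycans carry heparan, chondroitin or keratan sulfate, whose sulfation patterns affect the binding of growth factors and guidance cues.

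Signals are the deposited intensities on a linear scale. Changes are differences of log2(signal + 16), double knockout minus control, given with their SE, and adjusted p-values are from limma with Benjamini-Hochberg adjustment over the 27022 probe sets bright enough to be tested. A gene is read at its probe set with the highest mean log2 signal, and "rose" and "fell" mean an adjusted p under 0.05. Probe sets differ in brightness for reasons of design, so levels are compared between arrays and never between genes. The precision of every value is limited by the 2 arrays per group.

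In the targeted genes, all 6 probe sets of Sox11 fell, while of the 6 tested probe sets of Sox4, 4 fell, 1 rose and 1 did not pass. Array medians were 262 to 286.7, and over all tested genes 16.3% rose and 11% fell. Of the other cell types looked for, the 9 tested markers of microglia and macrophages all rose (median log2 change 1.60), and their summed signal over 11 markers was 6297 and 6912 in controls against 22435 and 20304 in knockouts. Trem2 and Itgam were too dim to test. Of 10 neuronal markers, 8 fell and 1, Snap25, rose, and their summed signal was 143182 and 149843 against 109239 and 106972. Of 8 markers of neural progenitors 5 rose, with sums of 80039 and 74667 against 86971 and 89384, though 3 rose without control 2 or knockout 1. Of 6 mesenchymal markers 3 rose (2 without control 1 or knockout 2). Of 5 endothelial markers 3 rose, but 2 without control 2, 1 without knockout 2 and 0 without control 1 or knockout 1. Of 3 tested choroid plexus markers Folr1 (0.57) and Clic6 (0.48) rose. Folr1 passed neither without knockout 1 (0.56) nor without knockout 2 (0.58). Clic6 passed without knockout 1 (0.54) but not without knockout 2 (0.42), where Ttr passed instead (0.20). Of 3 tested astrocyte markers Aqp4 rose (1.09), though not without knockout 1 (1.17) or knockout 2 (1.0). The controls of Aqp4 read 140.9 and 154.7, with a mean under the brightness cutoff. It entered the test through its knockouts and is given as a description. Of 2 erythroid markers 0 passed in limma (0.06 and -0.05). Control 2 differed from the other arrays in sex-linked transcripts, with Xist at 25215 and Eif2s3y at 43.5 against 3484 to 3890. Xist read 166.4 in control 1, 259.7 in knockout 1 and 1670 in knockout 2. Knockout 2 was thus intermediate in Xist, with Eif2s3y at 3578. The part of these differences in the results below was not tested, and in whole brain fewer cells of a type and less RNA per cell cannot be told apart.

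B3gnt5 had the largest change of all tested glycan enzymes and fell about 4-fold. Its brightest probe set read 4285 and 4603 in the controls and 934.3 and 1172 in the knockouts. Both knockout arrays lay far below both controls, with means of 4444 ± 225 and 1053 ± 168 (SD, n = 2 each), a log2 change of -2.07 ± 0.13 (4.20-fold lower, adjusted p = 9.63e-06). The other probe set of B3gnt5 read 405.3 and 343.3 in the controls and 56.4 and 103.2 in the knockouts (log2 change -2.07 ± 0.31). Its knockout arrays were under the brightness cutoff, so it entered the test through the controls, and it is given as a description. Among 12489 genes tested, B3gnt5 ranked number 6 from the bottom by log2 change. With 1 array left out the change was -2.23 to -1.91 and the adjusted p 5.2e-10 to 0.0018, and B3gnt5 passed under every alternative setting tried.

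Promoter windows are shown for B3gnt5, for its relative B3gnt2, which did not pass at the settings used throughout, and for B4galnt4 and Hs6st1, which fell under every setting. Each is the 250 bases before a transcription start, from RefSeq on GRCm38.p6, written 5′ to 3′ on the gene's strand, with CG dinucleotides in capitals. B3gnt5 is at chr16:19759984-19760233 (plus strand), B3gnt2 at chr11:22859736-22859985 (minus), B4galnt4 at chr7:141060728-141060977 (plus) and Hs6st1 at chr1:36068150-36068399 (plus). B3gnt5 and B3gnt2 have several annotated transcripts, and their windows lie at the start of one of them.
B3gnt5: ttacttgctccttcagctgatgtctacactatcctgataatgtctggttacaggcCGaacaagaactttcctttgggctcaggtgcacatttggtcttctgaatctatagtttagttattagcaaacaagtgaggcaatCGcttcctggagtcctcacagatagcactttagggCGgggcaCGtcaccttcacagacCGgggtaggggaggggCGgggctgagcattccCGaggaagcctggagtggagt
B3gnt2: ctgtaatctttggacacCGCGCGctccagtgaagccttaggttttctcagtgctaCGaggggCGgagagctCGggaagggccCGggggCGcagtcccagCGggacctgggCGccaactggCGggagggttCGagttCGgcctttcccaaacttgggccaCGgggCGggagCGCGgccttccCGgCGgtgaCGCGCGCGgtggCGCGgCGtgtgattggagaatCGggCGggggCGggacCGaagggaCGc
B4galnt4: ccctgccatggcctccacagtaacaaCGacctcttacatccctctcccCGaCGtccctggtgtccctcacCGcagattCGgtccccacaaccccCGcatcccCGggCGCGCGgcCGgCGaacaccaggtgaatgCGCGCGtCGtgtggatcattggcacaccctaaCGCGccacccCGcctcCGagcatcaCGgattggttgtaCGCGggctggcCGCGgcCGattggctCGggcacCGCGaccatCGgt
Hs6st1: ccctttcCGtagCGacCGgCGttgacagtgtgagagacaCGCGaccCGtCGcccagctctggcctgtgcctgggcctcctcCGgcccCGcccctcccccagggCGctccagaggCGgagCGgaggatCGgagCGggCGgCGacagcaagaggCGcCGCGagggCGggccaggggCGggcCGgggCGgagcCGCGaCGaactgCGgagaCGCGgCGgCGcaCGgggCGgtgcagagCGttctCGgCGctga

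The window of B3gnt5 holds 7 CG dinucleotides, against 31 for B3gnt2, 30 for B4galnt4 and 37 for Hs6st1. Over the full table windows of 300 bases, which run 50 bases past the start, B3gnt5 had 9 and a GC content of 53.3%, close to the median of all 32851 windows (7 and 52.7%). Other B3gnt genes had more, with 37 in B3gnt2, 21 in B3gnt7 and 24 in B3gntl1, and the median of the 113 windows of the glycan enzymes was 19. The letters ACAAAG and ACAATG, which are forms of the short motif bound by SOX factors, were searched on both strands. Neither occurs in the windows of B3gnt5, B3gnt2, B3gnt7, B3gntl1, B4galnt4, Hs6st1 or Hs3st1. At least 1 of these motifs occurs in 28.6% of all windows and in 15% of those of the glycan enzymes (17 of 113, from 86 genes). A match or its absence describes these letters in this window and nothing about binding.

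None of the 4 other tested B3gnt genes passed in limma, and at an unadjusted p under 0.05 only B3gnt2 would have. B3gnt2, the main enzyme of poly-N-acetyllactosamine extension, read 458.4 and 426.7 in the controls and 592 and 639.7 in the knockouts (log2 change 0.46 ± 0.16, adjusted p = 0.0602). It lay near the threshold and passed, as a rise, under quantile normalization (0.49, adjusted p = 0.0452), median centring (0.50, adjusted p = 0.035), a filter at the 60th percentile (adjusted p = 0.0499) and averaging of probe sets by gene (adjusted p = 0.0245). B3gnt7, which extends keratan sulfate, read 206.6 and 184.6 against 209.4 and 306.4 (0.35 ± 0.26, adjusted p = 0.363). B3gnt9 read 164.3 and 156.2 against 239.2 and 183.1 (0.36 ± 0.27, adjusted p = 0.372), and B3gntl1 read 150.6 and 185.3 against 249.6 and 218.9 (0.45 ± 0.26, adjusted p = 0.237). At all 4 genes both knockout arrays were higher than both controls, the opposite order to B3gnt5, though by little at B3gnt7. Groups did not overlap at 66.9% of all tested genes. B3gnt3, B3gnt4, B3gnt6 and B3gnt8 were too dim to test, with signals of 7.6 to 103.7 on any array.

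**Figure D1:**
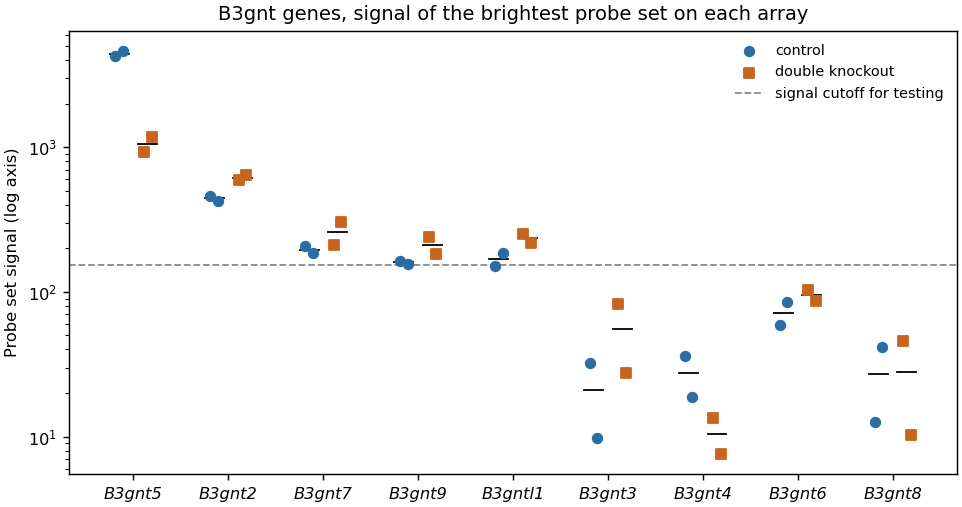
Signal of the brightest probe set of each B3gnt gene on each array (log axis), with circles for control arrays, squares for double-knockout arrays and short lines for group means of 2 arrays. B3gnt5 is the only one of the 5 tested genes whose knockout arrays lie below its controls, and the 4 genes at the right have means under the dashed cutoff of 154.6. Heights of different genes come from different probes and are not comparable.

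The difference between B3gnt5 and each relative was tested on its own, as the per-array difference of log2 values. The change of B3gnt5 was lower than that of B3gnt2 by a log2 difference of -2.53 ± 0.15 (SE, n = 2 against 2; exact permutation p = 0.333), of B3gntl1 by -2.52 ± 0.26, of B3gnt9 by -2.42 ± 0.35 and of B3gnt7 by -2.42 ± 0.16. Each of the 4 pairs gave the same two-sided exact p of 0.333, also after adjustment over the 4, which is the smallest that 2 arrays against 2 can give. The exact test cannot pass at this size, so it decides nothing here. Each difference was several times its SE, which rests on 2 arrays per group, and all 4 share the same values of B3gnt5.

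Across all families, 80 of the 114 genes were bright enough to be tested, and 12 rose, 13 fell and 55 did not pass. The shares of 15% that rose and 16.25% that fell stand against a background over all tested genes of 16.3% and 11%, and together 31.25% against 27.3%. The median log2 change was 0.03, against 0.06 over all genes tested. Changes of at least 1.5-fold that passed were found in 12 of the 80 (5 rose and 7 fell), with a background of 12.8%. Among these rises, Gcnt1 had controls under the brightness cutoff and entered the test through its knockouts. Groups did not overlap at 53 of the 80, with a background of 66.9%. By probe set, 15 rose and 16 fell of 129 tested (24.0%), against 23.2% of all probe sets. As a whole the enzymes thus moved about as often as other genes, in both directions.

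**Figure D2:**
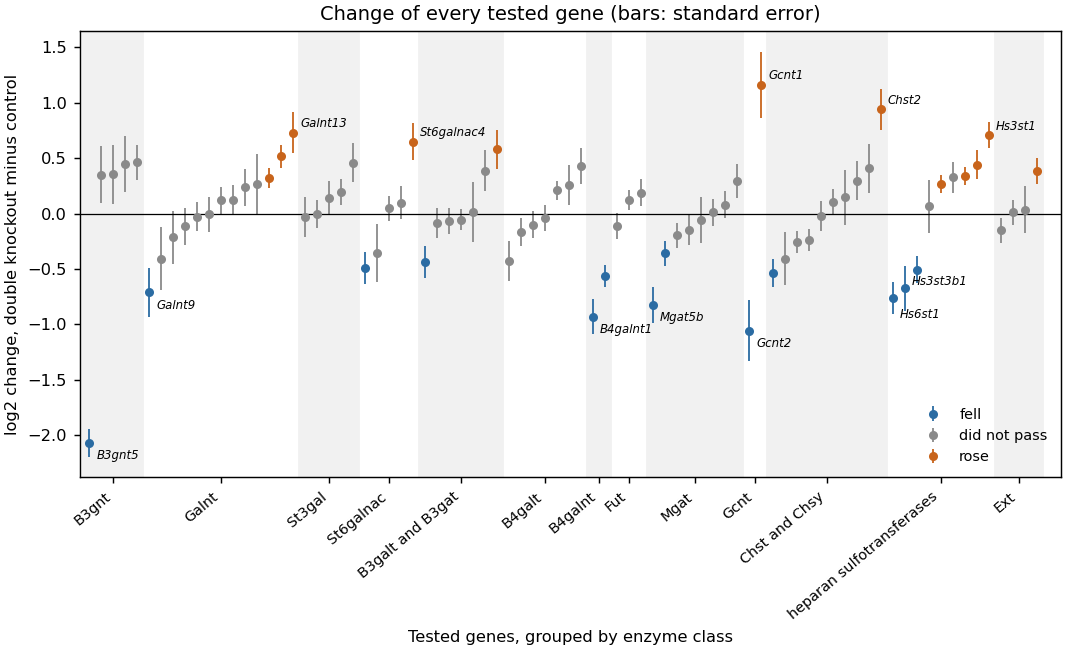
Log2 change of each of the 80 tested genes, ordered within its enzyme class, with bars for the SE and names for those that passed with at least 1.5-fold change. B3gnt5 at -2.07 lies below all others, and the next lowest is Gcnt2 at -1.06. The highest is Gcnt1 at 1.16, which entered the test through its knockout arrays.

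Which genes passed varied with the arrays used. With control 1 left out 14 of the 25 passed, with control 2 left out 15, with knockout 1 left out 6 and with knockout 2 left out 10. Fewer of the enzymes rose and fewer fell in each of these fits, and the same held over all tested genes. Genes that passed under every setting were B3gnt5, B4galnt1, B4galnt4 and Hs6st1, which fell, and Hs3st1, which rose. Calls without the trend of variance with signal were lost by B3galt1, B3galt2, Chst2, Extl2, Galnt1, Galnt2, Galnt9, Galnt13, Gcnt2, Hs2st1, Hs3st2, Hs3st4, Hs6st2, Mgat5 and St6galnac3. With no brightness filter the calls of B3galt1, B3galt2, Extl2, Galnt9, Galnt13, Gcnt1, Gcnt2, Hs2st1, Hs3st2, Hs3st3b1, Mgat5, St6galnac3 and St6galnac4 were lost. With probe sets averaged by gene those of Chst2, Galnt2, Galnt13, Hs2st1, Hs3st2, Hs6st2, St6galnac3 and St6galnac4 were lost.

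**Figure D3:**
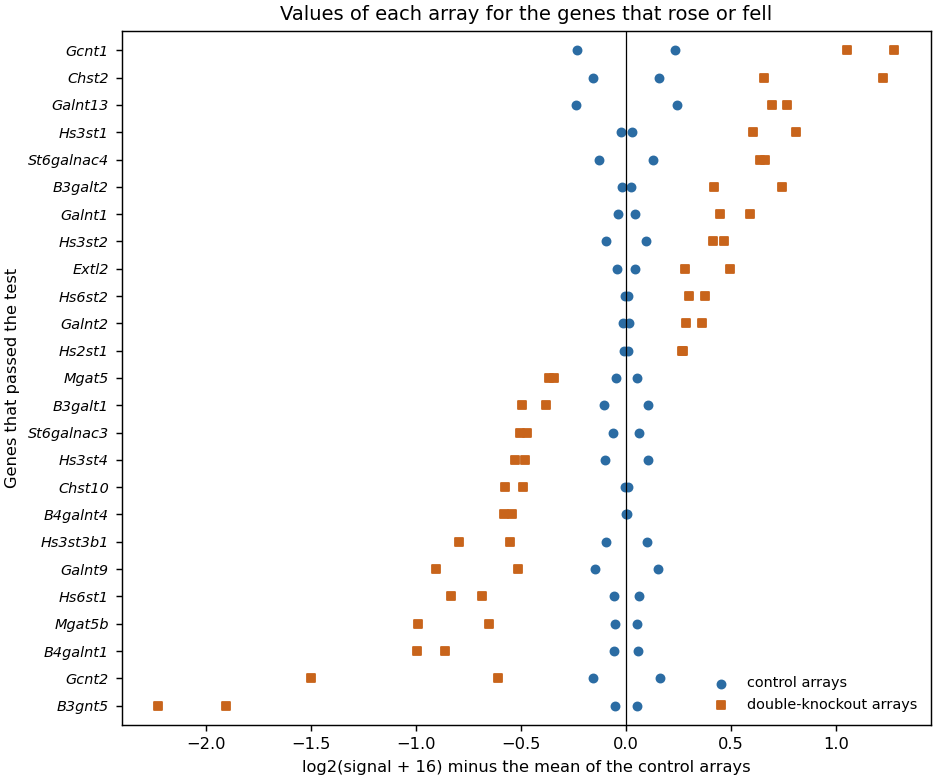
Each array's log2(signal + 16) minus the mean of the controls, for the 25 genes that passed, with circles for the 2 control and squares for the 2 knockout arrays. In every row both squares lie on 1 side of both circles, and the squares of Gcnt2, Chst2, Galnt9 and Mgat5b lie farther apart than those of most others.

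Among enzymes of gangliosides, B4galnt1 fell. B4galnt1, which makes GM2 and GD2 and so opens the complex gangliosides, read 731.4 and 792.4 in the controls and 411.8 and 374 in the knockouts (log2 change -0.93 ± 0.16, adjusted p = 0.0025). The groups did not overlap, as at 66.9% of all tested genes, and with any array left out the change was -1.0 to -0.86. St3gal5, which makes the precursor GM3, read 1172 and 1249 against 1440 and 1336 and did not pass (0.19, adjusted p = 0.272). The lactosylceramide synthases B4galt6 (0.21, adjusted p = 0.105) and B4galt5 (-0.10, adjusted p = 0.591) and the GM1 synthase B3galt4 (0.39, adjusted p = 0.161) did not pass either. Of these 5 enzymes B4galnt1 passed.

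Other genes of glycosphingolipid synthesis were taken from a list of 12, of which 10 were tested, 1 rose and 2 fell (median log2 change 0.01). Over all tested genes 16.3% rose and 11% fell. St8sia1, which makes GD3, read 6303 and 6283 in the controls and 3958 and 3067 in the knockouts, so that both knockouts were lower (-0.85 ± 0.12, adjusted p = 0.000745). Sptlc2, a subunit of the enzyme that starts sphingolipid synthesis, fell (-0.45, adjusted p = 0.0221), and passed neither without control 1 (-0.40) nor without knockout 1 (-0.35). St8sia5, which adds further sialic acids to gangliosides, went from 274.2 and 278.8 to 636.1 and 536.2 and rose (1.04 ± 0.18, adjusted p = 0.0029), though not past the threshold without knockout 1 (0.92, adjusted p = 0.0521). The sialyltransferases St8sia1 and St8sia5 thus moved in opposite directions.

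B4galnt4, which makes the LacdiNAc unit on protein glycans, fell from 2752 and 2746 to 1829 and 1881 (-0.56 ± 0.10, adjusted p = 0.00309). Arrays of each group were close together here, and the change was -0.58 to -0.54 with any array left out. Both tested B4galnt genes therefore fell, where 11% of all tested genes did. B4galnt2, which makes the Sda antigen, was too dim to test (44.9 to 80.9). Of the 7 tested B4galt genes, 0 passed in limma after adjustment (median -0.04), and 2 higher and 1 lower had an unadjusted p under 0.05. The largest changes were in B4galt1 (0.43, adjusted p = 0.0775) and in B4galt7, which adds the first galactose of the proteoglycan linker (-0.43, adjusted p = 0.121), followed by B4galt4 (0.26) and B4galt6 (0.21). B4galt1 passed without control 2 (0.58, adjusted p = 0.0321), under median centring (0.47) and with probe sets averaged by gene.

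In the B3galt and B3gat families, 1 gene rose, 1 fell and 5 did not pass, so that 28.6% passed, against 27.3% of all tested genes. B3galt2 and B3galt1 both add galactose to N-acetylglucosamine. B3galt2 read 402.5 and 390.4 in the controls and 536 and 674 in the knockouts (0.58 ± 0.18, adjusted p = 0.0367), and its other tested probe set also rose (0.87, adjusted p = 0.0073). B3galt1 read 879.8 and 1021 against 667 and 723.8 (-0.44 ± 0.14, adjusted p = 0.0499), and fell at another probe set too (-0.77, adjusted p = 0.0261). These 2 related enzymes moved in opposite directions at 2 probe sets each. B3galt2 did not pass with any array left out (0.42 to 0.74), and B3galt1 passed without control 1 (-0.54) but not without control 2 (-0.33), knockout 1 (-0.38) or knockout 2 (-0.50). B3gat1, the glucuronyltransferase of the HNK-1 epitope, read 7498 and 8042 against 8186 and 6829, with overlapping groups (-0.05 ± 0.10, adjusted p = 0.726). B3galt6 (-0.09) and B3gat3, both of the proteoglycan linker, B3galt5 and B3galt4 did not pass.

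Of the 13 tested Galnt genes, which start mucin-type O-glycans, 3 rose, 1 fell and 9 did not pass (median 0.12). Those that passed were 30.8%, near the 27.3% of all tested genes. Galnt13, known from neural tissue, read 378.8 and 535.5 in the controls and 738.7 and 777.6 in the knockouts (0.73 ± 0.18, adjusted p = 0.0174). Galnt1, a widely expressed member, rose from 2126 and 2248 to 3297 and 2986 (0.52 ± 0.10, adjusted p = 0.0054), and Galnt2 from 3611 and 3686 to 4691 and 4450 (0.32 ± 0.09, adjusted p = 0.0234). At each of these the lowest knockout was above the highest control, and groups did not overlap at 66.9% of all tested genes. Other probe sets did not pass, with changes of 0.20 for Galnt13, 0.13 for Galnt1 and -0.45 and -0.34 for Galnt2, and averaged over its probe sets Galnt2 changed by -0.16. Galnt9, a brain-expressed member, fell from 382.2 and 473.6 to 292.5 and 219.9 (-0.71 ± 0.22, adjusted p = 0.0399).

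These Galnt calls depended on single arrays, and without control 1 Galnt3 fell as well (-0.81). Galnt1 lost its call without knockout 1 (0.45, adjusted p = 0.0528), and Galnt2 with any array left out (0.29 to 0.36). Galnt13 passed without control 2 (0.97) but not without control 1 (0.49), knockout 1 (0.77) or knockout 2 (0.69), and Galnt9 passed without control 1 (-0.86) but not without control 2 (-0.56), knockout 1 (-0.90) or knockout 2 (-0.52). Galnt15 was too dim for the test and read 97.8 and 93.6 in the controls and 202.7 and 259.2 in the knockouts.

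Sialyltransferases of the St6galnac family, which add sialic acid to N-acetylgalactosamine, had 1 gene that rose and 1 that fell among 5 tested. The shares over all tested genes were 16.3% and 11%. St6galnac4 read 431 and 358.3 against 631.9 and 620.5 (0.65 ± 0.17, adjusted p = 0.0197) and passed without control 1 (0.78), but not without control 2 (0.52), knockout 1 (0.64) or knockout 2 (0.66). St6galnac3 read 717.9 and 783.5 against 522.8 and 535.7 (-0.49 ± 0.15, adjusted p = 0.0368), and did not pass with any array left out (-0.55 to -0.43). Another probe set of St6galnac3 changed by 0.07 (adjusted p = 0.806), so its probe sets differed in sign. St6galnac1 (-0.35) and St6galnac6 (0.10) did not pass. Of the 5 tested St3gal genes, 0 passed in limma at the brightest probe set (median 0.14), and 1, St3gal6, had an unadjusted p under 0.05. The change of St3gal6 was 0.46 (adjusted p = 0.0875), and a dimmer probe set of this gene rose (0.77, adjusted p = 0.0413). St3gal5 (0.19), St3gal3 (0.14) and St3gal4 (-0.03) followed.

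Fucosyltransferases were mostly dim. Of 9 Fut genes 3 were tested, and 0 passed in limma, also at an unadjusted p under 0.05. Over all tested genes 27.3% passed after adjustment. Fut8, the enzyme of core fucose on N-glycans, read 3469 and 2889 against 2749 and 3130 (-0.11 ± 0.12), and Fut9, which makes Lewis X, read 3423 and 3523 against 3634 and 3940 (0.12 ± 0.09). Fut8 groups overlapped and Fut9 groups did not, as at 66.9% of all tested genes, with both changes near their SE. Fut11 changed by 0.19 ± 0.12. Fut10 was too dim to test and its probe sets differed, with 70.1 and 92.1 against 96.5 and 83.7 at the one with the highest mean log2 signal. Another Fut10 probe set read 22.5 and 8.9 in the controls and 253.2 and 364.5 in the knockouts, and the remaining one 13.5 and 51.5 against 108.5 and 146.4. These were singled out after their values were seen and have no test.

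Among the 8 tested Mgat genes, which set the branching of N-glycans, 2 fell and 0 rose in limma (median -0.10). The same counts had an unadjusted p under 0.05. Those that passed were 25%, near the 27.3% of all tested genes. Mgat5b, a brain enzyme that branches O-mannose glycans, read 879.8 and 946.4 in the controls and 574.4 and 450.4 in the knockouts (-0.82 ± 0.16, adjusted p = 0.00523), with knockout 2 the lower of the pair. Without knockout 2 the change was -0.65 (adjusted p = 0.0507). Mgat5, its relative on N-glycans, read 1637 and 1756 against 1333 and 1310 (-0.36 ± 0.11, adjusted p = 0.0459), fell at another probe set (-0.46, adjusted p = 0.0337), and did not pass with any array left out (-0.41 to -0.31). The related enzymes Mgat5 and Mgat5b thus both fell. Mgat4a (0.29) and Mgat4b (-0.20), which add another branch, and Mgat1 (0.08) and Mgat2 (0.01), which start complex N-glycans, did not pass.

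Of the Gcnt family, branching enzymes, Gcnt2 fell and Gcnt1 rose, the latter from controls under the brightness cutoff. Gcnt1, which makes core 2 O-glycans, read 81 and 118 in the controls and 220.4 and 259.9 in the knockouts (1.16 ± 0.30, adjusted p = 0.0193). It is the 1 of the 80 tested enzyme genes with a group mean under the cutoff. It passed the brightness filter through its knockout arrays, so its rise is given as a description. Without control 1 it just missed the threshold (0.93, adjusted p = 0.0506), and without either knockout array it was too dim to test. Gcnt2, which branches poly-N-acetyllactosamine into the I antigen, read 490.8 and 615.5 against 183.6 and 354.7 (-1.06 ± 0.27, adjusted p = 0.02). Its 2 knockouts differed widely, with -1.50 without knockout 2 and -0.61 without knockout 1 (adjusted p = 0.133). A dimmer probe set of Gcnt2 changed by -0.71 (adjusted p = 0.117).

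Of the 10 tested Chst and Chsy genes, 1 rose and 1 fell (median 0.05), together 20% against 27.3% of all tested genes. Chst2, which sulfates N-acetylglucosamine, read 643 and 804.8 in the controls and 1701 and 1144 in the knockouts (0.94 ± 0.19, adjusted p = 0.00603). Knockout 1 was the higher, and without it the change was 0.66 (adjusted p = 0.0756). The other tested probe set of Chst2 changed by -0.05 (adjusted p = 0.894), so this rise rests on 1 probe set. Chst10, the sulfotransferase that completes HNK-1, read 1160 and 1149 against 767.8 and 816 (-0.54 ± 0.13, adjusted p = 0.0138), and did not pass without knockout 1 (-0.49) or knockout 2 (-0.58). Within the HNK-1 pathway the sulfotransferase thus fell, while the glucuronyltransferase B3gat1 did not pass. The chondroitin enzymes Chst7 (-0.41), Chsy1 (-0.26), Chst11 (-0.02), Chst14 (0.30) and Chst15 (0.11) did not pass, nor did Chst8 (0.41), which sulfates N-acetylgalactosamine.

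Of the 9 tested sulfotransferases of heparan sulfate, 4 rose and 3 fell (median 0.27), where 16.3% and 11% of all tested genes did. The counts were 1 and 2 without control 1, 2 and 2 without control 2, 1 and 1 without knockout 1, and 2 and 1 without knockout 2. The 2 tested enzymes of 6-O-sulfation moved in opposite directions, and the other, Hs6st3, was too dim to test (4.3 to 6.2). Hs6st1 read 1030 and 948.5 in the controls and 607.7 and 546.6 in the knockouts (-0.76 ± 0.14, adjusted p = 0.00409), and passed with any array left out (-0.84 to -0.69). Hs6st2 read 4894 and 4842 against 6311 and 5997 (0.34 ± 0.08, adjusted p = 0.0144). The Hs6st2 call held without knockout 2 (0.37) and was lost without control 1 (0.34), control 2 (0.33) or knockout 1 (0.30). Hs6st2 lies on the X chromosome, and the arrays differ in Xist, but the part of embryo sex in this change was not tested. Its other tested probe sets changed by 0.38 and less than 0.01 in size, and neither passed.

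The 3-O-sulfotransferases, which make rare modifications late in synthesis, also went both ways. Hs3st1 rose from 1328 and 1278 to 2291 and 1988 (0.71 ± 0.12, adjusted p = 0.00226), and passed with any array left out (0.60 to 0.81). Hs3st2 rose from 822.6 and 940.1 to 1176 and 1222 (0.44 ± 0.13, adjusted p = 0.0351). Hs3st4 fell from 1696 and 1957 to 1302 and 1259 (-0.50 ± 0.12, adjusted p = 0.0135). Hs3st3b1 fell as well, from 460.3 and 400.5 to 287.6 and 240.5 (-0.67 ± 0.20, adjusted p = 0.0349). At each of the 4 genes the knockouts lay outside the range of the controls, where groups did not overlap at 66.9% of all tested genes. Hs3st2 and Hs3st3b1 passed without control 2 (0.53 and -0.77) but not without control 1 (0.35 and -0.58), knockout 1 (0.47 and -0.80) or knockout 2 (0.41 and -0.55). Hs3st4 passed without control 1 (-0.61) but not without control 2 (-0.40), knockout 1 (-0.53) or knockout 2 (-0.48).

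**Figure D4:**
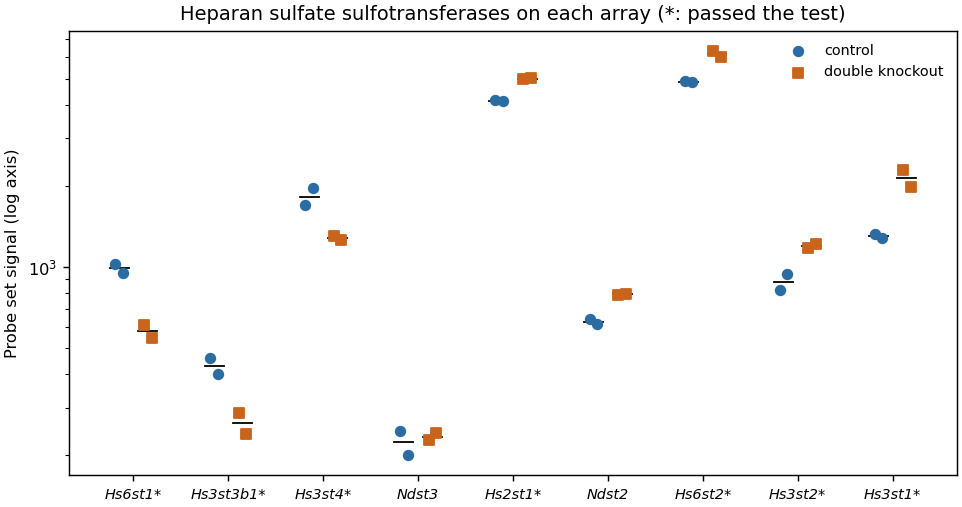
Signal of the brightest probe set of the 9 tested heparan sulfate sulfotransferases on each array (log axis), ordered by log2 change, with circles for controls, squares for double knockouts and short lines for means of 2 arrays. Hs6st1, Hs3st3b1 and Hs3st4 at the left have lower knockouts, Hs2st1, Hs6st2, Hs3st2 and Hs3st1 higher ones, and the groups overlap at Ndst3.

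Hs2st1, the single 2-O-sulfotransferase, rose by a small amount, from 4171 and 4123 to 4985 and 5010 (0.27 ± 0.08, adjusted p = 0.0412). Hs2st1 did not pass when any array was left out (0.26 to 0.28). Its other tested probe sets changed by 0.29, 0.42 and -0.14, and none of them passed. Ndst2 (0.33, adjusted p = 0.12) and Ndst3 (0.07), which begin sulfation, did not pass. Ndst4 was too dim to test, and Ndst1 was not among the genes read here. Of the Ext and Extl genes, which polymerise the chain or act at its start, 1 of 4 rose, against 16.3% of all tested genes. Extl2 read 1609 and 1708 against 2339 and 2018 (0.39 ± 0.12, adjusted p = 0.0356) and rose at another probe set (0.57, adjusted p = 0.0073). It did not pass without control 1 (0.34) or knockout 1 (0.28). The polymerase genes Ext1 (0.01) and Ext2 (0.04) and the initiating Extl3 (-0.15) did not pass and had overlapping groups.

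Genes outside these families that supply or share the same pathways were counted from 3 further lists, beside 16.3% of all tested genes that rose and 11% that fell. Of 14 tested genes of proteoglycan chain synthesis, 1 rose (median 0.25): Csgalnact2, which starts and extends chondroitin chains, read 801 and 681 against 1287 and 1524 (0.91 ± 0.14, adjusted p = 0.00173). Chpf2 (0.38) and Dsel (0.31) did not pass. Without control 1, 2 genes of this list rose. Of 17 tested genes of sugar donors and Golgi carriers, 3 rose and 1 fell (median 0.05). The rises were in Slc35a3, a carrier of UDP-N-acetylglucosamine (0.79, adjusted p = 0.00098), Slc35b2, a carrier of the sulfate donor (0.67, adjusted p = 0.00287), and Fcsk, a fucose kinase (0.57, adjusted p = 0.0411). Gne, the enzyme that opens sialic acid synthesis, fell (-0.51, adjusted p = 0.0489). Gne and Fcsk passed in 1 of the 4 fits with an array left out, that without control 1 (-0.72 and 0.72), and not without control 2 (-0.31 and 0.41), knockout 1 (-0.49 and 0.58) or knockout 2 (-0.54 and 0.55).

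Of 14 further glycan transferases tested, 3 rose and 2 fell (median 0.18), where 16.3% and 11% of all tested genes did. St6gal2 and St6gal1, which cap N-glycans with sialic acid, had the largest falls of the list: St6gal2 read 3244 and 3562 against 1206 and 1109 (-1.54 ± 0.11, adjusted p = 2.96e-05), and St6gal1 read 3591 and 4259 against 1410 and 1615 (-1.36 ± 0.12, adjusted p = 7.69e-05). Both knockouts were well under both controls at each gene. Mfng, a modifier of Notch (0.75, adjusted p = 0.00247), C1galt1c1, the chaperone of the core 1 enzyme (0.52, adjusted p = 0.0035), and Pomgnt1, of O-mannose glycans (0.43, adjusted p = 0.0193), rose. Pomgnt1 did not pass without control 2 (0.41) or knockout 2 (0.34).

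Probe sets of one gene did not always move together. Of the 80 tested genes 35 had several tested probe sets, and 15 of these were among the 25 that passed. Another probe set passed in the same direction for 5 of the 15 (B3gnt5, B3galt1, B3galt2, Mgat5 and Extl2), that of B3gnt5 with its knockouts under the cutoff, and a tested probe set had the opposite sign for 5 (Chst2, Galnt2, St6galnac3, Hs2st1 and Hs6st2). No gene had 1 probe set that rose and another that fell. The 34 genes not tested were dim on these arrays, and for them the data give no call.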

How the data were processed

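Total RNA of 4 whole embryonic brains or pools was hybridised to 1-colour Affymetrix arrays. The authors deposited linear probe set intensities, and the submitters' processing notes name MAS5 (version 5.0) as the tool. The sources used here give no genome build. Each array had a mean of 1000 after trimming 2% at either end, so a shift common to most transcripts would have been removed. Of 45101 probe sets, 64 controls were left out.

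Symbols came from the platform annotation, and all 227 probe sets of the glycan enzymes matched RefSeq (GRCm38.p6) by gene ID. Another 3 probe sets with several symbols were not used. Values were log2(signal + 16), which understates changes of dim genes. Probe sets with a mean above the 40th percentile (signal 154.6) were fitted in limma 3.58.1 (R 4.3.3; lmFit, eBayes with trend, residual df 2, prior df 8.33), double knockout minus control, with Benjamini-Hochberg adjustment. Since pooling of embryos is not stated, p-values cover the spread of these arrays only. The controls were not the same material, with Xist at 166.4 in control 1 and 25215 in control 2, and Eif2s3y at 3484 and 43.5. Xist also differed between knockout 1 (259.7) and knockout 2 (1670). How much of the spread lies between embryos was not tested. The steps were tested on simulated data.

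The genes, lists and rule for named genes were chosen with earlier results of these data known. The rule named B3gnt5 and all B3gnt genes, the 4 largest changes of each class, every gene that passed with a 1.5-fold change, and the 3 largest changes of each list. Genes that complete a count or a pathway step, among them St3gal5, B4galt5, B3gat1, B3gat3, Mgat1, Mgat2, Chst11, Chst14, Chst15, Ndst2, Fut10, Galnt15 and Pomgnt1, were named after their values were seen. As alternatives, arrays were normalized by quantiles or centred on medians, the pseudocount was 1 or 64, the filter was dropped or raised to the 60th percentile, eBayes was run robust or without trend, the threshold was 0.1, arrays were left out singly, replicate numbers were a block, and probe sets were averaged by gene. A planned comparison of B3gnt protein sequences was not made, and proteins are not analysed here.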

Additional observations from a re-analysis of the deposited data

How the results depend on the processing

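Counts depended on the arrays and on the model of variance. Against 12 genes that rose and 13 that fell, there were 5 and 8 with no signal filter, and 3 and 7 with eBayes without trend. Shares over all tested genes dropped too, from 16.3% that rose and 11% that fell. They were 7.9% and 5.5% with no filter, and 7.7% and 5.2% without trend. With probe sets averaged by gene 7 rose and 12 fell, and over all tested genes 16.9% and 12.9% did. Leaving out an array gave 1 to 9 that rose and 5 to 11 that fell. Such a fit assumes that a group's single array varies as the other group's 2 do. Of the 25 genes, those that still passed numbered 12 with no filter, 10 without trend and 17 by the mean of probe sets. Galnt2 reversed by the mean of its probe sets (log2 change -0.16, adjusted p = 0.49). With no filter Gcnt7, otherwise too dim, was also called (-1.73, adjusted p = 0.0417). Under quantile normalization and under median centring 13 rose and 10 fell. B3galt1 and Mgat5 lost their calls under both, Galnt9 under the first, and St6galnac3 and Hs2st1 under the second, while B3gnt2 passed under both. The other settings moved both counts by less than 1.5 times. The change of B3gnt5 was -2.23 to -1.91 over all settings, and each of its 4 differences from a relative kept its sign. With the replicate block 12 rose and 12 fell, Mgat5 being the gene that lost its call. Same-numbered arrays did not deviate together over all probe sets (correlation of deviations -0.01). The labels do not say whether a number marks a shared litter or day, and this correlation cannot decide it. Signals near the cutoff, as in Gcnt1, B3gnt7, B3gnt9 and B3gntl1, limit what these arrays can show.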
